A study of Mus musculus with 4 samples.

Results

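The 10 genes described here code for C-type lectin receptors of myeloid cells. They were picked by gene symbol and are Clec7a (dectin-1), Clec12a (MICL), Clec4n (dectin-2), Clec4d (MCL), Clec4e (mincle), Clec4b1 (DCAR), Clec4a2 (DCIR), its relatives Clec4a1 and Clec4a3, and Clec5a (MDL-1). All 10 were among the 35869 genes listed, and all 10 passed the filter on low values. Their transcripts were measured by RNA-seq in CD45+ cells, the immune cells enriched with microbeads from the epididymal white adipose tissue (eWAT) of male WT C57BL/6 mice. The mice were fed a normal diet (ND) or a high-fat diet (HFD) for 12 weeks from 8 weeks of age, with 2 samples per diet and no transgene in either group. The number of mice behind each sample is not given in the sources used here, so the p-values measure only the spread between these samples, which may be technical. The gene of CD45, Ptprc, stood at 54.5 and 59.4 TPM under ND and at 55.3 and 53.7 TPM under HFD.

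C-type lectin receptors carry an extracellular domain that binds sugars, lipids or proteins of microbes and of damaged cells, and myeloid cells use them to sense both. Activating members signal through the tyrosine kinase SYK and the adaptor CARD9. Dectin-1 recruits SYK by its own cytoplasmic tail, dectin-2, mincle, MCL and DCAR work with the FcR gamma chain (Fcer1g), and MDL-1 works with DAP12 (Tyrobp). DCIR and MICL carry an inhibitory motif in the tail that recruits the phosphatases SHP-1 and SHP-2. In adipose tissue these receptors lie mostly on macrophages, monocytes, neutrophils and dendritic cells.

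All 10 genes lie on chromosome 6 of mm10, in 3 places (coordinates from GENCODE vM21, which uses the same assembly). Clec5a stands alone at chr6:40574894-40585821 on the minus strand. The Clec4 genes form 1 cluster from the start of Clec4a1 at chr6:122921848-122934619 to the end of Clec4e at chr6:123281789-123289870, and Clec12a (chr6:129342691-129365303) and Clec7a (chr6:129461591-129472779) are neighbors farther along. To show what lies before a transcript start of the genes that moved, the 250 bases upstream of the start that RefSeq gives (GRCm38.p6) are printed for the 5 genes that passed the test below, 5′ to 3′ on the strand of the gene, with the letters GAGGAA on either strand in capitals. These starts can differ from the ends of the GENCODE spans above. The window of Clec12a lies within its GENCODE span, which begins farther upstream, and that of Clec5a overlaps the end of its span by a few bases. GAGGAA is the core that the myeloid transcription factor PU.1 recognizes, and a match of these letters is a description and not a binding site.
Clec4d, chr6:123261857-123262106, plus strand: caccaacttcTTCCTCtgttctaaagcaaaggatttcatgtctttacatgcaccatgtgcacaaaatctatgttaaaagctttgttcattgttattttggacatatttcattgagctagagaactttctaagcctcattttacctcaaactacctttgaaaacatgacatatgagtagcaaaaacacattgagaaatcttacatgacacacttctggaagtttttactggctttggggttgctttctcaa
Clec12a, chr6:129349994-129350243, plus strand: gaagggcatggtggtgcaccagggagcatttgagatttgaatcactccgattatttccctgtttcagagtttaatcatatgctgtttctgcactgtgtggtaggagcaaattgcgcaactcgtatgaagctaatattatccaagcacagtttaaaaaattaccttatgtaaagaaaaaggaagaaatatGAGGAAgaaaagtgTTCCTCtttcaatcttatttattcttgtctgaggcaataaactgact
Clec7a, chr6:129472786-129473035, minus strand: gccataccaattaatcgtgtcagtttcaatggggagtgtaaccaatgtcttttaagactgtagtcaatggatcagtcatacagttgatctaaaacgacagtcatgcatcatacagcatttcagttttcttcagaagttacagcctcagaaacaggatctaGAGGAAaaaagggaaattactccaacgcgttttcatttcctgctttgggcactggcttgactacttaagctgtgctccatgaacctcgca
Clec4a1, chr6:122921598-122921847, plus strand: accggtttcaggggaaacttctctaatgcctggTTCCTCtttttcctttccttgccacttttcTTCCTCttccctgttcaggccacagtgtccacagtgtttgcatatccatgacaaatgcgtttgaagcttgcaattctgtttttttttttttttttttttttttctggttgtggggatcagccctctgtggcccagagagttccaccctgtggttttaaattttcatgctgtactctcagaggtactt
Clec5a, chr6:40585806-40586055, minus strand: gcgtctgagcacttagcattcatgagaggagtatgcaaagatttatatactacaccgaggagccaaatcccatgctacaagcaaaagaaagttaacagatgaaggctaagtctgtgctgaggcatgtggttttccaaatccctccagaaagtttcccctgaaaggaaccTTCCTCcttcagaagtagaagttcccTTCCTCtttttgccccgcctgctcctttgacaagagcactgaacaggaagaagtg

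A window was listed for 9 of the 10 genes, and Clec4n had none. GAGGAA occurred in the first listed window of 7 of these 9 genes and in any listed window of 8, against 23.1% of 27025 windows of the same length over all genes. Genes that rose and genes that fell both had it. It began 61 and 47 bases before the RefSeq start of Clec12a, which rose. For Clec7a, which also rose, it began 90 bases before the start used above and 96 before another listed RefSeq start. For Clec5a, which fell, it began 81 and 55 bases before the start. Clec4a2 had no match in its window, which also lies within its GENCODE span.

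The sum of the 10 genes lay in a narrow range while its makeup differed between the diets. Together they held 1049 and 1115 TPM (a count divided by gene length and scaled to a common total) in ND and 1153 and 1188 TPM in HFD. In ND the largest part was Clec4a1, with 32.8% and 31.8% of the sum, and in HFD it was Clec12a, with 24.7% and 23.9%. Clec4a1 made up 17.6% and 16.9% of the sum in HFD, and Clec7a went from 16.0% and 16.9% in ND to 23.9% and 22.2% in HFD.

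**Figure D1:**
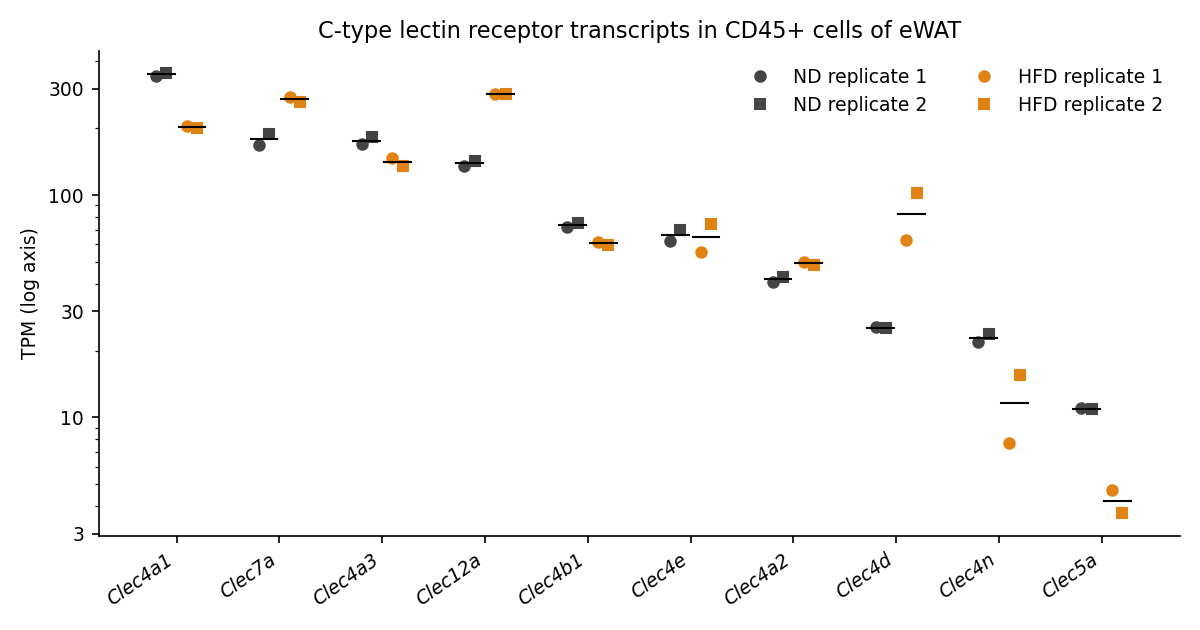
TPM of the 10 genes (log axis) in each ND and HFD sample, with points for samples and bars for the mean of each diet. Clec12a, Clec7a and Clec4d lie higher in both HFD samples, Clec4a1 and Clec5a lie lower, and Clec4e overlaps between the diets.

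The values were compared as log2(TPM + 1) with limma over the 16849 genes with at least 1 TPM in at least 2 samples, and a gene counted as differentially expressed (DEG) when it changed 1.5-fold or more with a p-value under 0.05 after Benjamini-Hochberg adjustment. Of the 10 genes, 5 were DEGs, and 18.4% of all genes tested were. In HFD 3 of the 10 were higher (8.08% of all genes) and 2 were lower (10.3% of all genes). The TPM of the diets did not overlap for 9 of the 10 genes, which was also so for 66.9% of all genes. The median log2 fold change was -0.15 over the 10 genes and 0.06 over all genes. An exact two-sided permutation test of 1 gene cannot give a p under 0.33 with 2 samples against 2, so each call rests on the spread that limma shares across genes. It also rests on both ND samples, since limma called 0 of all genes without ND replicate 1 or without ND replicate 2 (3862 and 4024 at an unadjusted p under 0.05), and the 5 DEGs then had adjusted p-values from 0.161 to 0.251 with their direction kept. A fit that leaves out an HFD sample has 1 HFD sample and takes the spread from the ND pair alone, so its calls hold no error from the split between the HFD samples. Bulk RNA does not separate fewer cells of a type from less RNA per cell.

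**Figure D2:**
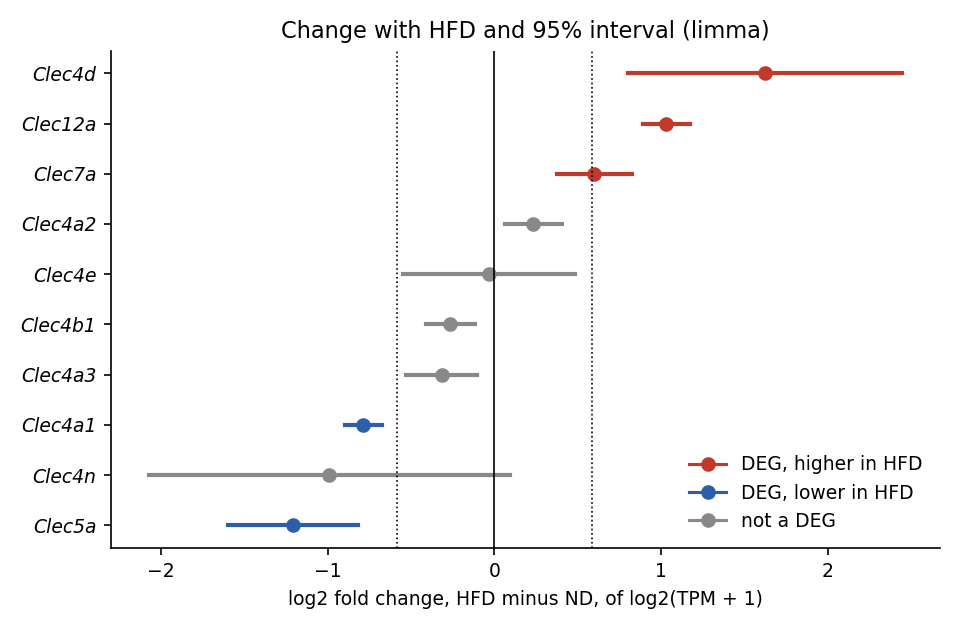
Log2 fold change of each gene, HFD minus ND, as the difference of log2(TPM + 1), with its 95% interval from limma. Dotted lines mark a change of 1.5-fold, and color marks DEGs. Clec4d has the largest estimate and a wide interval, and Clec7a sits at the 1.5-fold line.

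Among the activating receptors, dectin-1 and MCL were higher in HFD, MDL-1 was lower, and dectin-2, mincle and DCAR were not DEGs. Clec7a, the receptor of fungal beta-glucans, stood at 168.0 and 188.0 TPM under ND and at 276.0 and 263.3 TPM under HFD. Both HFD samples lay above both ND samples. Its log2 fold change was 0.60 (standard error 0.08, adjusted p = 0.0198 in limma), a 1.51-fold rise just past the limit. The change came under 1.5-fold after 4 other scalings, 1 of them chosen after seeing the data. The lowest log2 fold change was 0.45, after quantile normalization (adjusted p = 0.0258 in limma). The highest were 0.577 without genes under 200 bases (adjusted p = 0.0168) and 0.575 after median-ratio scaling (adjusted p = 0.0413). The call was also lost without HFD replicate 1 (0.56, adjusted p = 0.0872) and without HFD replicate 2 (0.63, adjusted p = 0.0678), and with a replicate block (adjusted p = 0.0724).

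Clec4d codes for MCL, which forms a receptor complex with mincle for mycobacterial glycolipid. It stood at 25.5 and 25.2 TPM under ND and, under HFD, at 62.5 TPM in replicate 1 and 102.6 TPM in replicate 2. The ND values were nearly equal, both HFD values were higher, and the HFD samples stood far apart. The log2 fold change was 1.62 (standard error 0.28, adjusted p = 0.0332 in limma), the largest rise of the 10 genes. Leaving out HFD replicate 2 gave 1.27 and leaving out HFD replicate 1 gave 1.98. The call was lost after median-ratio scaling (adjusted p = 0.053), without the filter on low values (adjusted p = 0.0729) and with a replicate block (adjusted p = 0.0721).

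Clec4e, the gene of mincle, is the neighbor of Clec4d and stood at 62.0 and 69.7 TPM under ND and at 55.7 and 74.1 TPM under HFD. The HFD samples enclosed the ND samples, with a log2 fold change of -0.03 (adjusted p = 0.903 in limma). The 95% interval ran from -0.55 to 0.49, so a change of 1.5-fold either way lay outside it. The sign depended on the samples kept, with 0.17 when HFD replicate 1 was left out and -0.24 when HFD replicate 2 was. Clec4n, the gene of dectin-2, which binds fungal mannans, stood at 21.8 and 23.8 TPM under ND and at 7.7 and 15.5 TPM under HFD. Both HFD values were lower, but they differed 2-fold from each other, and the log2 fold change of -0.99 did not pass (standard error 0.36, adjusted p = 0.14 in limma). It was -1.45 without HFD replicate 2, where it passed with the spread of the ND pair alone (adjusted p = 0.0298), and -0.53 without HFD replicate 1.

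Clec5a codes for MDL-1, an activating receptor of monocytes, macrophages and neutrophils. It was the least abundant of the 10, at 11.0 and 10.9 TPM under ND and 4.7 and 3.7 TPM under HFD, or approximately 602 and 690 reads in ND and 292 and 200 in HFD. The HFD samples were both low. Its log2 fold change was -1.21 (standard error 0.13, adjusted p = 0.0153 in limma), the largest fall of the 10 genes in this fit. At so low a level it depended on the pseudocount and was -0.80 with a pseudocount of 5, still a DEG, and -1.37 with a pseudocount of 0.1. Without HFD replicate 2 it was -1.07, a smaller fall than the -1.45 of Clec4n. With a replicate block it did not pass (adjusted p = 0.0635). Clec4b1, the gene of DCAR, stood at 71.8 and 74.7 TPM under ND and at 61.7 and 59.9 TPM under HFD. The diets did not overlap, but the log2 fold change of -0.26 (adjusted p = 0.0394 in limma) was under 1.5-fold.

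Of the receptors with an inhibitory motif, MICL was higher in HFD and DCIR was not a DEG. Clec12a, which senses uric acid crystals of dead cells, stood at 134.7 and 142.8 TPM under ND and at 284.4 and 284.6 TPM under HFD. The HFD samples were nearly equal and lay well above the ND samples, a mean of 139 ± 5.73 TPM for ND against 284.5 ± 0.141 TPM for HFD (SD, n = 2 per diet). The log2 fold change was 1.03 (standard error 0.05, adjusted p = 0.0053 in limma). Clec4a2 stood at 40.6 and 42.9 TPM under ND and at 50.1 and 48.4 TPM under HFD, with a log2 fold change of 0.23 (adjusted p = 0.0657 in limma).

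The 2 DCIR relatives at the start of the cluster were both lower in HFD by value, and 1 was a DEG. Clec4a1 was the most abundant of the 10 genes in ND, at 344.4 and 354.6 TPM, and had 203.5 and 201.2 TPM in HFD. Replicates lay close together in both diets. Its log2 fold change was -0.79 (standard error 0.04, adjusted p = 0.00537 in limma), a 1.72-fold fall. Clec4a3 stood at 169.0 and 182.2 TPM under ND and at 146.7 and 135.1 TPM under HFD, with a log2 fold change of -0.32 (adjusted p = 0.0561 in limma).

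In order of level, the ND samples had Clec4a1 first, then Clec7a and Clec4a3, whose values overlapped, then Clec12a, Clec4b1, Clec4e, Clec4a2, Clec4d, Clec4n and Clec5a. In HFD, Clec12a came first, followed by Clec7a and Clec4a1. In the HFD samples the values of Clec4e overlapped with those of Clec4d and with those of Clec4b1. Clec4d moved from rank 8 by mean TPM in ND to rank 5 in HFD, and Clec4n and Clec5a stayed last in both diets.

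Neighbors within the Clec4 cluster had log2 fold changes of both signs. From one end to the other, the log2 fold changes were -0.79 for Clec4a1, -0.32 for Clec4a3, -0.26 for Clec4b1, 0.23 for Clec4a2, -0.99 for Clec4n, 1.62 for Clec4d and -0.03 for Clec4e. Clec4n and Clec4d lie 15.1 kb apart and Clec4d and Clec4e 6.5 kb apart. Other lectin genes of the cluster were low, with Clec4a4 (DCIR2) between 2.7 and 5.3 TPM and Clec4b2 at most 0.5 TPM in each sample. Reads could be split between some of these genes, since 8.68% of the 50-base windows of Clec4b1 transcripts also occur in Clec4a2 and 6.83% of those of Clec4a2 occur in another gene. With 75-base windows these shares were 1.02% and 3.24%, and the read length is not given in the sources used here. For Clec4a1, Clec4a3, Clec4d, Clec4e, Clec5a and Clec7a no such window was shared. The noncoding RNA genes Gm45969, in RefSeq, and Gm44132, in GENCODE, overlap Clec7a and Clec4a2, and whether strand was used in counting is not given in the sources used here.

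**Figure D3:**
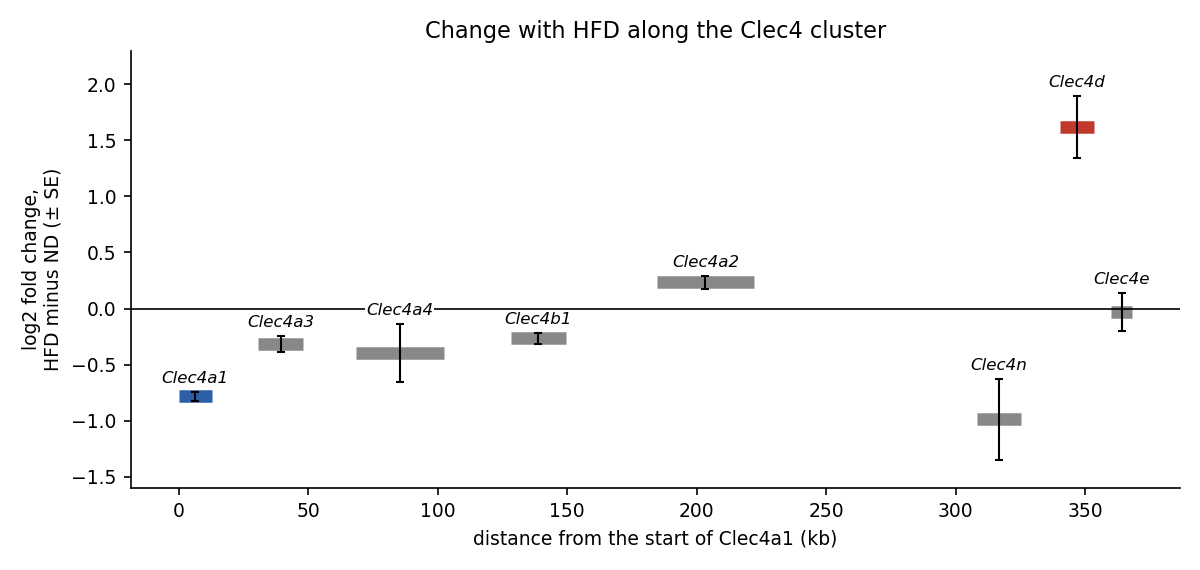
Log2 fold change, HFD minus ND (y axis, bars from -SE to +SE), of the Clec4 genes tested, drawn at their place and length in the cluster, as distance in kb from the start of Clec4a1. Red marks a DEG higher in HFD, blue a DEG lower in HFD and gray other genes. Clec4n at -0.99 and Clec4d at 1.62 lie side by side.

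The 3 genes at the far end of the cluster also differed between the HFD samples. Clec4n, Clec4d and Clec4e were higher in HFD replicate 2 than in replicate 1, by 0.92, 0.71 and 0.41 on the log2(TPM + 1) scale, and 12.5%, 15.7% and 24.8% of all genes tested differed by more in either direction (1.34%, 2.51% and 5.86% by more in this direction). For the other 7 genes the difference lay between -0.28 and 0.00, and between the ND samples no gene of the 10 differed by more than 0.17. Markers of several cell types differed between these samples as well. Over all genes tested the median difference, HFD replicate 2 minus replicate 1, was -0.07. Lipid-associated and pan-macrophage markers differed little, with medians of 0.04 and 0.03, though 9 of 9 and 8 of 10 were higher in HFD replicate 2. All 6 fibroblast markers were higher in HFD replicate 2, by a median of 0.95, as were all 8 monocyte markers (0.37), all 4 T cell markers (0.50), all 4 mast cell markers (0.35) and 6 of 8 dendritic cell markers (0.44). All 7 resident macrophage markers were lower there, with a median of -0.64, and so were all 5 spermatid markers, with the widest split of the lists (-1.67). The sum of the fibroblast markers was 573.7 and 615.6 TPM under ND and 2821 and 5606 TPM under HFD, and none was at 0. The part of these cells in the differences of Clec4n, Clec4d and Clec4e was not tested.

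**Figure D4:**
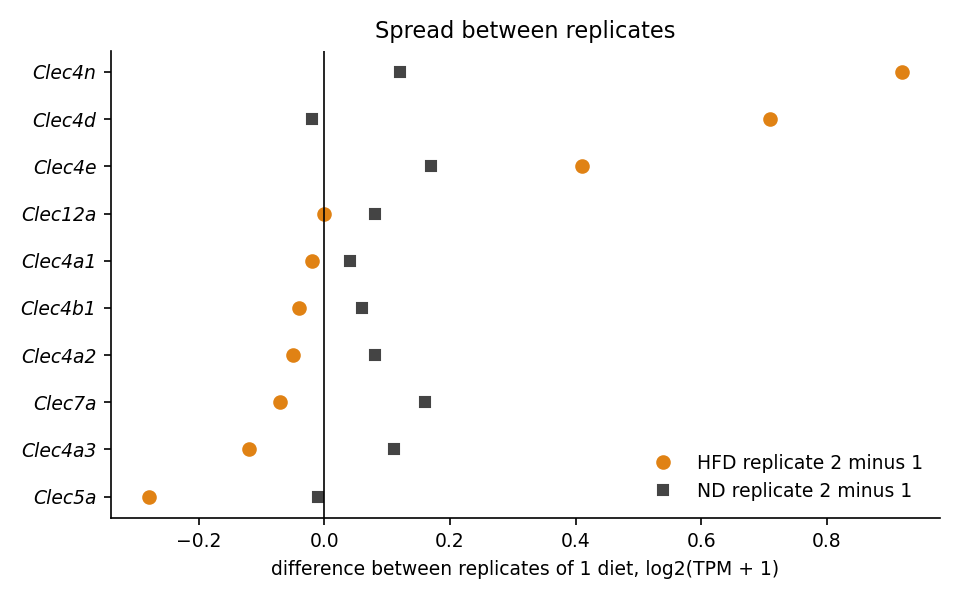
Difference between replicates of the same diet for the 10 genes, as replicate 2 minus replicate 1 on the log2(TPM + 1) scale, orange for HFD and gray for ND. Clec4n, Clec4d and Clec4e have the highest HFD differences of the 10, at 0.92, 0.71 and 0.41.

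By profile over the 4 samples, the genes most like Clec4d were Cygb, Enc1 and Naalad2, at a root-mean-square distance of 0.026, 0.043 and 0.044 in log2(TPM + 1) centred per gene. Cygb, the gene of cytoglobin, which fibroblasts are known to express, stood at 18.1 and 18.6 TPM under ND and at 45.8 and 77.4 TPM under HFD. For Clec5a the nearest were Fam213b, Acod1 and Gm36338, at 0.011, 0.015 and 0.038. Acod1, the enzyme that makes itaconate in activated macrophages, stood at 12.4 and 12.5 TPM under ND and at 5.5 and 4.4 TPM under HFD. This likeness rests on 4 samples in 2 diets.

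Of 27 signaling genes in and around the SYK and CARD9 pathway, 3 were higher, 4 were lower and 20 were not DEGs. So 25.9% were DEGs beside 18.4% of all genes tested, with a median log2 fold change of -0.11. The list mixes activating parts with phosphatases, so its count and median do not measure the activity of the pathway. Fcer1g, the partner of dectin-2, mincle, MCL and DCAR, stood at 1777 and 1771 TPM under ND and at 1410 and 1503 TPM under HFD, with a log2 fold change of -0.28 (adjusted p = 0.03 in limma) that stayed under 1.5-fold. Tyrobp, the partner of MDL-1, stood at 2027 and 2022 TPM under ND and at 2336 and 2451 TPM under HFD (0.24, adjusted p = 0.0304), also under 1.5-fold. Both adaptors were far more abundant than any of the 10 receptors. Syk was at 71.5 to 78.0 TPM in all samples (0.10, adjusted p = 0.203). Card9 stood at 21.9 and 23.0 TPM under ND and at 17.5 and 17.6 TPM under HFD, with a log2 fold change of -0.34 that was under 1.5-fold.

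The signaling genes that rose included Blnk (0.92), an adaptor below SYK, and the Src family kinase Src (0.79). Those that fell were Hcst (-1.11), the gene of the adaptor DAP10, the Src family kinase Fgr (-0.90), Nfatc2 (-0.73) and Plcg2 (-0.64), the phospholipase that SYK activates. Src was at 1.0 and 1.1 TPM under ND and 2.5 and 2.6 TPM under HFD. None of the 6 genes of the CARD9 branch and none of the 3 phosphatase genes was a DEG.

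Genes that these receptors are known to induce moved in both directions. Of 16 response genes, 4 were higher, 5 were lower and 7 were not DEGs (56.2% DEGs, beside 18.4% of all genes tested), with a median log2 fold change of -0.07. The neutrophil chemokine Cxcl1 (1.28), the IL-1 receptor antagonist Il1rn (1.06), Il10 (0.92) and Ptgs2 (0.74), the prostaglandin synthase, rose. Csf2 (-1.73), the gene of GM-CSF, the transcription factor Egr3 (-1.42), the monocyte chemokine Ccl2 (-1.28) and Nfkbiz (-1.12), a regulator of NF-κB, fell. Many other receptors induce these genes as well.

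Transcripts of reported endogenous ligands were also compared. Vim, whose protein vimentin has been described as a ligand of dectin-1, stood at 3093 and 3039 TPM under ND and at 4767 and 4891 TPM under HFD, a log2 fold change of 0.66 (adjusted p = 0.00563 in limma). Lgals9, the gene of galectin-9, stood at 117.6 and 118.4 TPM under ND and at 79.0 and 79.7 TPM under HFD, and its log2 fold change of -0.57 was under 1.5-fold.

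Among other lectins of the family, more were lower than higher in HFD. Of 34 genes listed, 28 were tested, of which 2 were higher, 12 lower and 14 not DEGs (50% DEGs, beside 18.4% of all genes, 8.08% higher and 10.3% lower), with a median log2 fold change of -0.40. Mrc1, Cd209a and Clec9a of this list are also among the markers of macrophages and dendritic cells below. The largest falls were in the DC-SIGN relatives Cd209g (-3.65), Cd209d (-3.52), Cd209f (-3.36) and Cd209b (-3.31). Cd209g stood at 403.4 and 400.6 TPM under ND and at 44.7 and 21.4 TPM under HFD. Those higher were Mrc2 (3.40), a collagen receptor of fibroblasts and macrophages, and Cd93 (1.20), a receptor of myeloid and endothelial cells. Mrc2 stood at 1.8 TPM in both ND samples and, under HFD, at 18.1 TPM in replicate 1 and 44.7 TPM in replicate 2, a split like that of the fibroblast markers above.

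**Figure D5:**
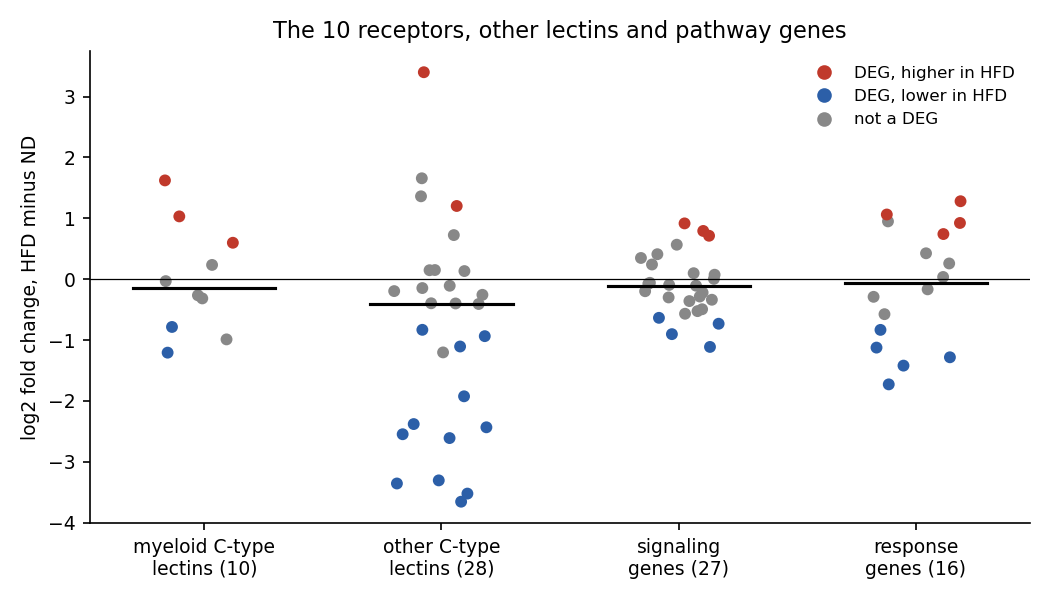
Log2 fold change, HFD minus ND, of the 10 receptors, the other C-type lectins, the signaling genes and the response genes tested, 1 point per gene with the median as a bar. Red marks DEGs higher and blue DEGs lower in HFD, and the other lectins reach furthest below 0.

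Many markers of the cells that carry these receptors changed with the diet too, and their part in the differences of the receptors was not tested. Over all genes tested, 18.4% were DEGs, 8.08% higher and 10.3% lower. Some short lists lay not far above that share. DEGs were 25% of the dendritic cell and of the adipocyte markers, 30% of the pan-macrophage and 33.3% of the eosinophil markers. Of 10 pan-macrophage markers, 2 were higher and 1 was lower, with summed levels of 11754 to 12178 TPM in ND and 9871 to 10114 TPM in HFD. All 9 markers of lipid-associated macrophages were higher, from 1675 to 1726 TPM in ND to 10360 to 10797 TPM in HFD, and all 7 of resident macrophages were lower, from 4595 to 4705 TPM to 1223 to 1535 TPM. For monocytes 4 of 8 markers were lower (612.0 and 616.7 TPM in ND, 355.4 and 399.7 TPM in HFD), for neutrophils 6 of 7 tested, with Ly6g at or near 0 in all samples (263.7 and 286.5 TPM, 34.7 and 37.4 TPM), and for dendritic cells 2 of 8 (518.1 and 539.3 TPM, 176.9 and 220.1 TPM). A single gene made up most of each of these 3 sums in ND. Without Nr4a1 the monocyte markers summed to 243.1 and 258.2 TPM in ND and to 124.3 and 160.4 TPM in HFD. Without Mmp9 the neutrophil markers summed to 72.5 and 95.9 TPM in ND and to 29.4 and 32.8 TPM in HFD. Without Cd209a the dendritic cell markers summed to 150.9 and 146.3 TPM in ND and to 111.9 and 162.1 TPM in HFD, which overlap. Centred on the pan-macrophage list, the log2 fold changes were 1.71 for Clec4d, 1.12 for Clec12a, 0.69 for Clec7a, -0.70 for Clec4a1 and -1.12 for Clec5a, and all 5 remained DEGs. That list holds markers that rose and markers that fell, so centring moved the values little (Clec4d from 1.62, Clec4a1 from -0.79). Keeping the calls is therefore no test of the macrophage content. Of the other lists, plasmacytoid dendritic cells had 2 of 3 markers lower, B cells 4 of 4, T cells 4 of 4, NK cells 3 of 3, eosinophils 1 of 3 and mast cells 4 of 4, fibroblasts had 4 of 6 higher and adipocytes 1 of 4 higher. None of 5 spermatid markers was a DEG, though their sum was 6460 TPM in HFD replicate 1 and 1734 to 1995 TPM in the other samples.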

How the data were processed

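RNA-seq libraries of CD45+ cells from the eWAT of ND-fed and HFD-fed mice, 2 samples per diet, were made with a stranded mRNA kit. Per the labels and the paper's methods, the authors trimmed reads with Trim Galore 0.4.2 and cutadapt 1.9.1, aligned them to mm10 with STAR 2.6.1e, removed duplicate reads with Sambamba, counted them with featureCounts 1.6.2 and deposited TPM. TPM are relative amounts and not counts. No depth comes with them, but short microRNA genes fell on whole multiples of a step, so that 1 read per kb was worth 0.0607 to 0.0712 TPM, and read numbers given here are approximate.

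Genes with at least 1 TPM in at least 2 samples (16849) were compared as log2(TPM + 1), a scale that understates changes of low genes, with limma 3.58.1 in R 4.3.3 (eBayes with a variance trend, two-sided, Benjamini-Hochberg adjustment). The steps were tested on simulated data. The 10 genes, the gene lists and the tests were chosen with earlier results of these data known. Named were all 10 genes, in each list up to 4 DEGs with the largest change per direction, Fcer1g, Tyrobp, Syk, Card9, the ligands, and the 3 genes nearest in profile to the receptors with the largest rise and fall. A signaling gene that this rule would name is not reported here. Plots were made in Python 3.11.15 using matplotlib 3.10.9. The 16 alternative settings were pseudocounts of 0.1 and 5, quantile normalization, centring on the pan-macrophage list or on Ptprc, no filter, a mean of at least 5 TPM, median-ratio scaling, leaving out each of the 4 samples, a replicate block, TPM rescaled after removing the 50 most abundant genes or (chosen after seeing the data) genes under 200 bases, and eBayes with no trend. Counts of DEGs were also made at 2-fold and with no limit on the fold.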

Additional observations from a re-analysis of the deposited data

How the results depend on the processing

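Of the 160 values of the 10 genes under 16 alternative settings, 134 kept direction and call, 21 lost the call, 1 gained it and 4 changed sign. All 4 were of Clec4e, which was 0.057 centred on the pan-macrophage list and 0.029 centred on Ptprc, and lay between -0.235 and 0.17 with 1 sample left out (0.051 without ND replicate 2 and 0.17 without HFD replicate 1).

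The number of receptors higher in HFD was 3, and 1 after median-ratio scaling. With 1 sample left out it lay between 0 and 2, and the number lower lay between 0 and 3. The number lower was 2, and 1 at a limit of 2-fold. Without ND replicate 1 or 2, limma called 0 genes over all, with 3862 and 4024 at an unadjusted p under 0.05, among them 5 and 4 of the 10 receptors. These fits take the spread from the HFD samples, and those without an HFD sample take it from the ND samples, so the lone sample is assumed to vary like the other diet. Over all genes, 3097 DEGs became 2015 with a pseudocount of 5, and the share higher in HFD was 43.9%, and lay between 39.2% without the 50 most abundant genes and 62.6% without HFD replicate 2 (4232 DEGs), with 54.5% centred on the pan-macrophage list. The cause was not tested.

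The diets share replicate numbers, but same-numbered samples did not deviate together (correlation -0.015), so they were not taken as pairs. With a replicate block 1 receptor was higher (Clec12a), 1 was lower (Clec4a1), Clec4d, Clec7a and Clec5a lost the call, and 2 signaling genes, 7 other lectins and 812 genes over all were DEGs. The block leaves fewer degrees of freedom. Read numbers were lowest for Clec4n, at about 177 in HFD replicate 1, and for Clec5a, at about 200 in HFD replicate 2.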
